A study of Mus musculus with 8 samples.

Results

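The genes described here are 10, most of which cells switch on within minutes of a stimulus: the AP-1 genes Fos, Fosb, Fosl2, Jun, Junb and Jund, the early growth response genes Egr1, Egr2 and Egr3, and Dusp1. They were taken by gene symbol, and all 15 probe sets that the platform annotation gives to one of these symbols alone were kept, of 45101 on the array. The arrays came from 4 aged female mice, each giving a clonal expansion of CD8 memory T cells, which is a population grown from 1 cell, and polyclonal CD8 memory T cells of the same animal, so that 8 arrays form 4 pairs. Mice 1 and 2 were aged 20 months, and mice 3 and 4 were aged 23 months. Mouse 4 was of the B10.BR strain and the other three were C57BL/10SnJ. Every sample was sorted from pooled spleen and lymph node cells as CD8+, CD122+ and MHC class II-negative, with the expansion positive and its partner negative for the clone's T cell receptor beta chain. Expansion 1 belongs to a subclass with high integrin alpha4, represented by that animal alone, and expansions 2, 3 and 4 belong to an alpha4-low subclass. The cells were stained with antibodies, sorted without culture and frozen at once. Labelled sort purity lay between 91 and 98% for expansions and was 97, 75, 66 and 97% for polyclonal samples 1 to 4.

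FOS and JUN proteins pair through leucine zippers to form AP-1, a transcription factor that joins calcium and MAP kinase signals from the T cell receptor to genes for cytokines and activation. EGR proteins are zinc finger transcription factors induced by the same signals, and EGR2 and EGR3 are also known for restraining T cell responses. DUSP1 is a phosphatase that switches off MAP kinases and is itself made early after they are activated. Most of these transcripts are short-lived and are induced by antigen receptor signals as well as by cytokines and cell stress, which is why such genes are read as traces of recent stimulation. This holds less for Jund and Fosl2.

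The arrays held T cell RNA throughout: Cd8a read between 13073 and 30815, and all 7 measured CD8 T cell markers lay above background on 8 of 8 arrays. Background here is the 95th percentile of 27 bacterial control probe sets without spiked RNA, 33.7 to 61.9 per array. Values are MAS5 signals, and differences are on the scale of log2(signal + 5), which understates changes of dim probe sets. A signal per array cannot tell fewer expressing cells from less RNA per cell. Markers of other lineages were also read, among them the B cell gene Ighm (2013 to 34327) and the neutrophil gene S100a8 (475 to 6177).

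Of the 15 probe sets, 9 lay above background on all arrays, covering Fos, Fosl2, Jun, Jund, Egr1, Egr2, Egr3 and Dusp1. Where a gene has a pair of probe sets they are called a and b, in order of their array identifiers. A filter on the mean level left 12 probe sets of 9 genes for testing. The only Fosb probe set and a dim one each for Jund and Egr3 did not pass it. Junb passed, but its single probe set read only 23.7 to 92.3 and was above background on 4 of 8 arrays.

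The RefSeq promoter table holds entries for 8 of these genes, not for Egr1 or Egr3. The promoters of Fos, Jun and Dusp1, the 3 genes that passed a test between mice described further on, are shown here, from 250 bases before to 50 bases after the gene start, in build GRCm38.p6. Capitals mark the cAMP response element TGACGTCA, its shorter core TGACG, which lies within it on each strand, and TGACATCA, the form of the element known from the Jun promoter, all searched on both strands.
Fos, chr12:85473640-85473939, plus strand: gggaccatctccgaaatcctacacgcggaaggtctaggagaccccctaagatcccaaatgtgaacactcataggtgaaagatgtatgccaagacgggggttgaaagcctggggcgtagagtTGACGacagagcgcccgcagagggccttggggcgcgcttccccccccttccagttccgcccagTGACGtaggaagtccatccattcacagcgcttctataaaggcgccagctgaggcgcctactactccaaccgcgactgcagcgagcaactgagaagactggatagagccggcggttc
Jun, chr4:95052173-95052472, minus strand: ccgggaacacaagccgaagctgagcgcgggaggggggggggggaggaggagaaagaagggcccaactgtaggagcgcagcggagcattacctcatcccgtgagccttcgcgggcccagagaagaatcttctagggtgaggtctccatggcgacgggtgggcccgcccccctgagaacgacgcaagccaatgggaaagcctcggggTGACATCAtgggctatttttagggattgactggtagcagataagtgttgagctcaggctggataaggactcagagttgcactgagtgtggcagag
Dusp1, chr17:26508423-26508722, minus strand: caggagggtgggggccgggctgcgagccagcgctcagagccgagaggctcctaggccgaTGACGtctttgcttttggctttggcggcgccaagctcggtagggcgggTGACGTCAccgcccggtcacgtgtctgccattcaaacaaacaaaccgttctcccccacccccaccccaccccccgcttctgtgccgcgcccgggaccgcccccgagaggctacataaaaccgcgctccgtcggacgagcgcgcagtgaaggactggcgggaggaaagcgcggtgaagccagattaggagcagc

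Counted from the gene start, the Fos promoter held the core TGACG at -129 to -125 and at -66 to -62. The Dusp1 promoter held the whole element at -143 to -136 and a further core at -191 to -187. The Jun promoter held TGACATCA at -45 to -38. Among all 32851 promoters of this length, 20.8% held TGACG, 1.79% TGACGTCA and 3.62% TGACATCA. Among the 8 genes with an entry, 5 held TGACG (Dusp1, Egr2, Fos, Fosb and Junb), Dusp1 alone held TGACGTCA and Jun alone TGACATCA. The CArG box bound by serum response factor was found in Egr2 alone, in 4 of its entries, and in 1.63% of all promoters. The AP-1 motif TGANTCA (7.81% of all promoters) and the EGR motif GCGTGGGCG (0.612%) were found in 0 of the 8 genes. These are matches of letters only, within this window, and sites outside it were not searched. A gene without a match here may hold one elsewhere. The 8 genes had 12 entries, and the percentages count entries rather than genes.

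The design sets each clonal expansion against its polyclonal partner, and for these genes no difference passed the test. Of the 12 tested probe sets, 0 had a limma adjusted p under 0.05 over all 4 pairs, where the share among all 22518 tested was 0%. At an unadjusted p under 0.05 stood 1, Jun a, which was lower in the expansions; 3.25% of all tested stood there, with 2.3% of all tested lower. The mean difference was positive for 5 and negative for 7. Their median was -0.08, against -0.04 for all tested probe sets. A single probe set was higher in every expansion (Fosl2 a) and a single one lower in every expansion (Jun a), while 4.79% and 6.05% of all tested probe sets were so.

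**Figure D1:**
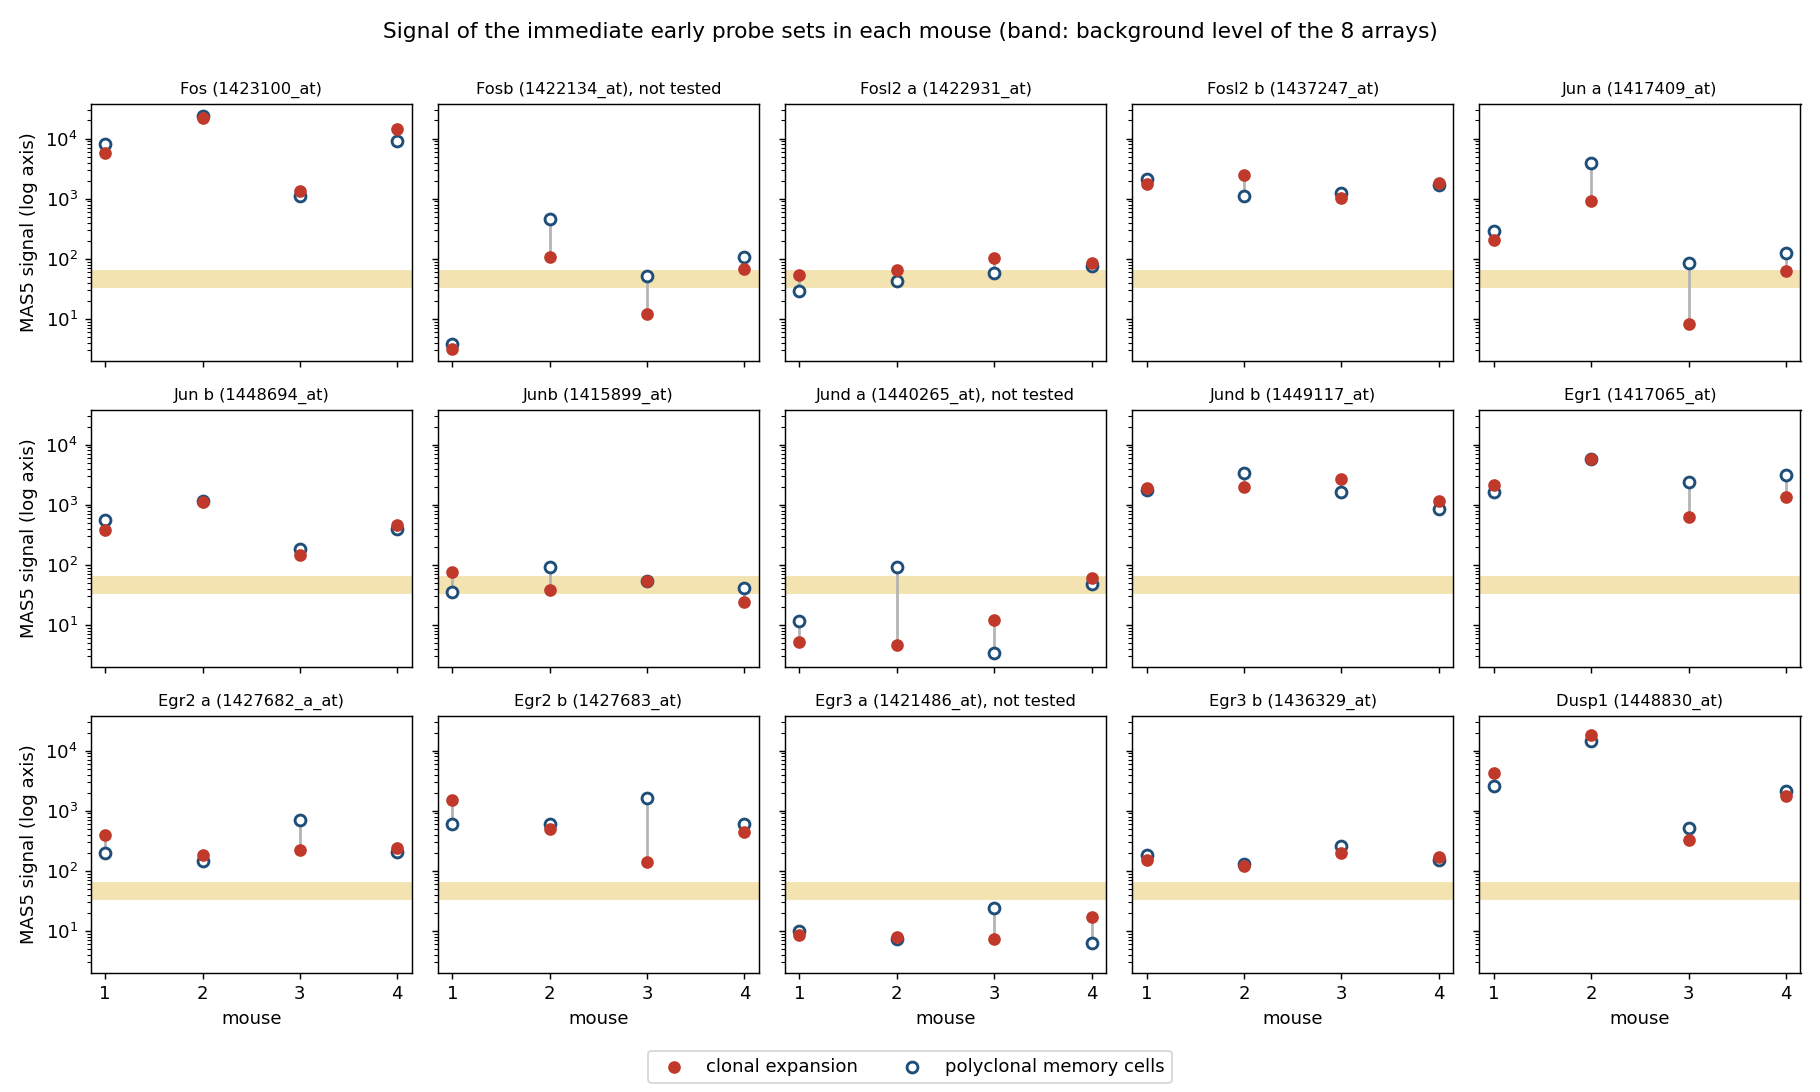
MAS5 signal (log axis) of the 15 probe sets in the clonal expansion (filled) and polyclonal cells (open) of each mouse, with pairs joined by a line and the range of the background level as a band. Fos, Dusp1 and Jun are high in both samples of mouse 2 and low in both samples of mouse 3. Fosb, Junb and the dim Fosl2, Jund and Egr3 probe sets reach into or under the band, as does Jun a in expansion 3.

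Fos, which encodes the founding AP-1 partner of JUN, gave the brightest signal of the set. It read 5689, 21875, 1350 and 14418 in expansions 1 to 4, and 7983, 23914, 1128 and 9194 in their partners. Partners lay close together while mice lay far apart, and the ranges of expansions and polyclonal cells overlapped almost entirely. Group means were 10833 ± 9150 for expansions and 10555 ± 9588 for polyclonal samples (SD, n = 4 each). The paired differences were -0.49, -0.13, 0.26 and 0.65, with a mean of 0.07 (SE 0.29, limma adjusted p = 0.9998).

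Fosb encodes a close relative of FOS that also pairs with JUN proteins. Its signals were 3.17, 108, 11.99 and 67.7 in expansions 1 to 4, and 3.85, 464, 50.9 and 109 in polyclonal samples 1 to 4. Both samples of mouse 1 and expansion 3 were under background, so no size is given for those pairs. In the pairs of mice 2 and 4, where both samples were above it, the expansion differed from its partner by -2.06 and -0.65. It was left out of the test by the filter on the mean.

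Fosl2 encodes FRA-2, a FOS protein without the transactivation domain of FOS. Its bright probe set (Fosl2 b) read 1743, 2479, 1031 and 1801 in expansions 1 to 4, and 2118, 1118, 1253 and 1698 in their partners. Expansion 2 was above its partner, and the other three pairs were close. The mean difference was 0.17 (SE 0.35, limma adjusted p = 0.9998). The dim Fosl2 probe set (Fosl2 a), at 29.1 to 105, was higher in 4 of 4 expansions, with a mean difference of 0.58 (SE 0.47, limma adjusted p = 0.9998). It was above background on 6 of 8 arrays.

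Jun, which encodes the partner shared by all FOS proteins, was read by a pair of probe sets that differed in their paired values. For Jun b the signals were 376, 1096, 143 and 460 in expansions 1 to 4, and 553, 1170, 185 and 398 in polyclonal samples 1 to 4. Here partners were again alike, with a mean difference of -0.20 (SE 0.32, limma adjusted p = 0.9998). For Jun a the expansions read 203, 929, 8.21 and 63.1, and their partners 291, 3917, 85.0 and 126. Each expansion was below its partner, although expansion 3 was under background and the groups as a whole overlapped. The paired differences were -0.51, -2.07, -2.77 and -0.95, with a mean of -1.57 (SE 0.43, limma adjusted p = 0.9998). Without pairs 2 and 3, whose polyclonal samples had the lowest sort purity, that mean was -0.73, and with sort purity as a covariate it was -0.88.

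Junb and Jund encode JUN proteins that in many settings oppose growth signals carried by JUN. Junb read 74.6, 38.8, 53.0 and 23.7 in expansions 1 to 4 and 34.9, 92.3, 54.6 and 41.3 in their partners, so the groups overlapped around background. Its mean difference was -0.22 (SE 0.57, limma adjusted p = 0.9998). The bright Jund probe set (Jund b) was well above background everywhere, at 1907, 2001, 2686 and 1148 in expansions 1 to 4 and 1747, 3429, 1627 and 854 in polyclonal samples 1 to 4. Its mean difference was 0.12 (SE 0.34, limma adjusted p = 0.9998). The dim Jund probe set (Jund a) was above background on 3 of 8 arrays and was not tested.

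Egr1, a zinc finger factor induced through ERK signalling, gave 2092, 5735, 623 and 1328 in expansions 1 to 4. The polyclonal cells of the same mice gave 1650, 5685, 2374 and 3103. In mouse 2 the samples were nearly equal, whereas expansions 3 and 4 were below their partners by 1.92 and 1.22 on the log2 scale. The groups overlapped, and the mean difference was -0.70 (SE 0.40, limma adjusted p = 0.9998). It was -0.29 without pair 3 and -0.30 with sort purity as a covariate.

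Egr2, which with Egr3 limits T cell activation, had the widest spread of paired differences among the bright probe sets. Its probe set Egr2 b read 1498, 505, 139 and 437 in expansions 1 to 4, and 602, 609, 1643 and 599 in their partners. Polyclonal sample 3 was high and the other three partners were almost level, between 599 and 609, while expansion 1 was the highest clone and expansion 3 the lowest. The paired differences were 1.31, -0.27, -3.51 and -0.45, with a mean of -0.73 (SE 0.62, limma adjusted p = 0.9998). The mean turned to 0.20 without pair 3 and to 0.44 with sort purity as a covariate. The further Egr2 probe set, Egr2 a, read 395, 185, 221 and 239 in expansions and 195, 147, 700 and 207 in partners, with differences of 0.9999, 0.33, -1.64 and 0.21. Both probe sets put pair 1 above and pair 3 below zero, and they differ in sign for pairs 2 and 4.

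Egr3 was low but above background on every array in its bright probe set (Egr3 b), from 121 to 201 in expansions and from 131 to 256 in polyclonal cells. The mean difference was -0.14 (SE 0.34, limma adjusted p = 0.9998). The other Egr3 probe set was under background on all 8 arrays. Dusp1, the MAP kinase phosphatase gene, read 4254, 18124, 325 and 1741 in expansions 1 to 4 and 2541, 14399, 512 and 2157 in polyclonal samples 1 to 4. As for Fos, partners were alike and mice were not, and the mean difference was 0.03 (SE 0.33, limma adjusted p = 0.9998).

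**Figure D2:**
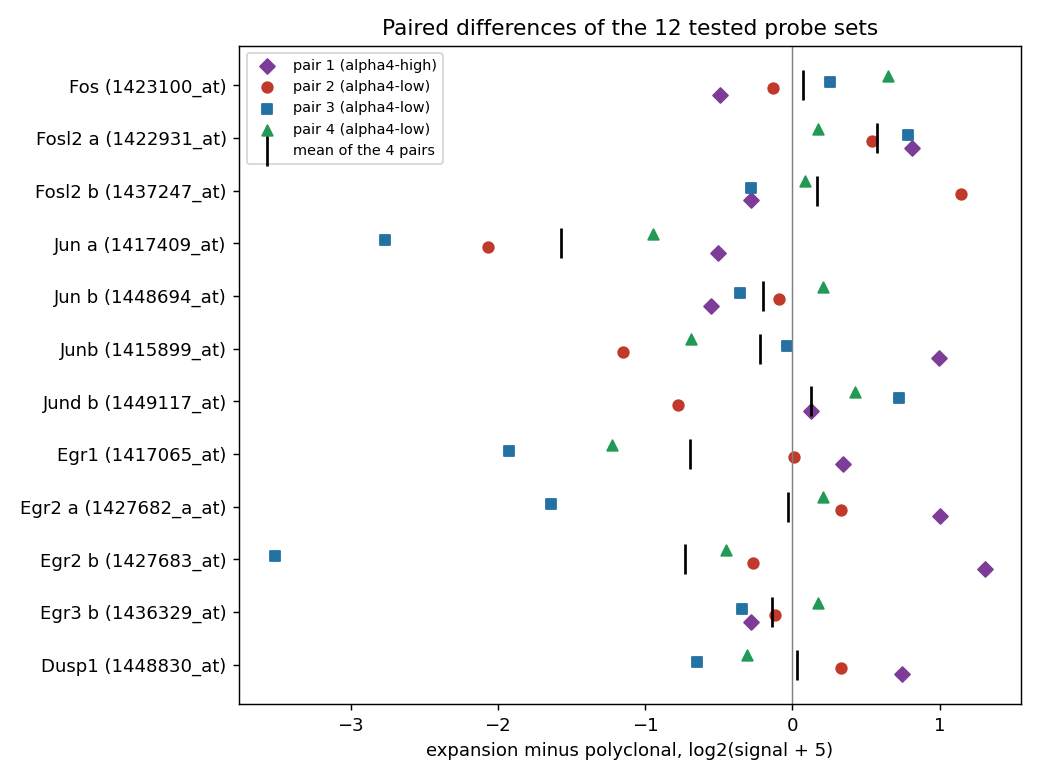
Difference between expansion and polyclonal cells of the same mouse, in log2(signal + 5), for the 12 tested probe sets; symbols are pairs and the bar is the mean of the 4 pairs. Fos, Dusp1 and Jun b stay between -0.65 and 0.74 in every pair, while Egr2 b runs from -3.51 in pair 3 to 1.31 in pair 1.

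By themselves, the 3 alpha4-low pairs also gave no call among these genes. Among the 12 probe sets 0 passed, where 12 of 22518, or 0.0533%, passed over the whole array. At an unadjusted p under 0.05 stood 3, all lower in the expansions (5.11% of all tested stood there and 3.91% were lower): Jun a at -1.93 (SE 0.46, limma adjusted p = 0.411), Egr2 b at -1.41 (SE 0.58, limma adjusted p = 0.944) and Egr1 at -1.04 (SE 0.45, limma adjusted p = 0.963). Lower in 3 of 3 alpha4-low pairs were 3 of the 12, against 15% of all tested, and higher in 3 of 3 was 1, against 9.99%. Without pair 4 the Jun probe set Jun a passed, at -2.42 (limma adjusted p = 0.0221), and over its other alternatives the adjusted p lay between 0.221 and 1. Without pair 3 the Egr2 value was -0.36, and with sort purity as a covariate 0.13. The Egr1 value was -0.60 without pair 3.

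The alpha4-high pair was then set against the alpha4-low pairs. The difference of their paired differences passed for 0 of the 12 probe sets, and for 0.0533% of all tested. Egr2 b had the lowest p of the set, at -2.72 (SE 1.17, limma adjusted p = 0.694), since expansion 1 was above and the alpha4-low expansions were below their partners. That value was -0.64 with sort purity as a covariate and -1.67 without pair 3. It was the 1 probe set at an unadjusted p under 0.05, where 6.57% of all tested stood, 4.06% of all with a negative value. This contrast has 1 alpha4-high pair, so it measures that clone. For Fos the difference of differences was 0.75 (SE 0.73) and for Dusp1 it was -0.95 (SE 0.81), each with a limma adjusted p of 0.9997.

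What set samples apart for several of these genes was the mouse. Fos, Dusp1 and Jun were high in both samples of mouse 2 and low in both samples of mouse 3, whether clonal or polyclonal. The Fos mean of a pair was 18.5-fold higher in mouse 2 than in mouse 3, that of Dusp1 39.1-fold, that of Jun b 6.79-fold and that of Jun a 55.5-fold, the last with a sample under background in mouse 3. A test of the mouse term in the all-pairs model, added after these values had been seen, gave a limma adjusted p of 0.0163 for Fos, 0.0163 for Dusp1, 0.0170 for Jun a and 0.0506 for Jun b. Thus 3 of the 12 probe sets passed, where 1.84% of all tested did. The mouse term held 98.1% of the sum of squares over the 8 arrays for Fos, 98.0% for Dusp1 and 84.8% for Jun a, the 3 that passed, against a median of 54.4% over all tested probe sets. Among the others it ran from 14.3% for Egr2 b to 96.9% for Jun b. These shares and the test rest on the same values, so the shares are not separate support.

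The samples of mouse 2 lay above all 6 other samples for 5 of the 12 probe sets (Fos, Dusp1, Egr1 and the pair for Jun), as for 4.29% of all tested. The samples of mouse 3 lay below all others for 3 (Fos, Dusp1 and Jun b), as for 2.91%. These 3 showed both, as did 0.169% of all tested. Mice 2 and 3 were singled out after the values had been seen, so these counts describe the pattern and do not test it. The order of the 4 mice was the same among expansions as among polyclonal cells for Fos, Dusp1 and Jun a, and for 6.51% of all tested. For Fos that order ran from mouse 2 through mice 4 and 1 to mouse 3, whereas for Dusp1 and this Jun probe set mouse 1 stood above mouse 4. The middle places were close for Fos, with mouse means of 12.72 for mouse 1 and 13.49 for mouse 4 on the log2 scale.

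**Figure D3:**
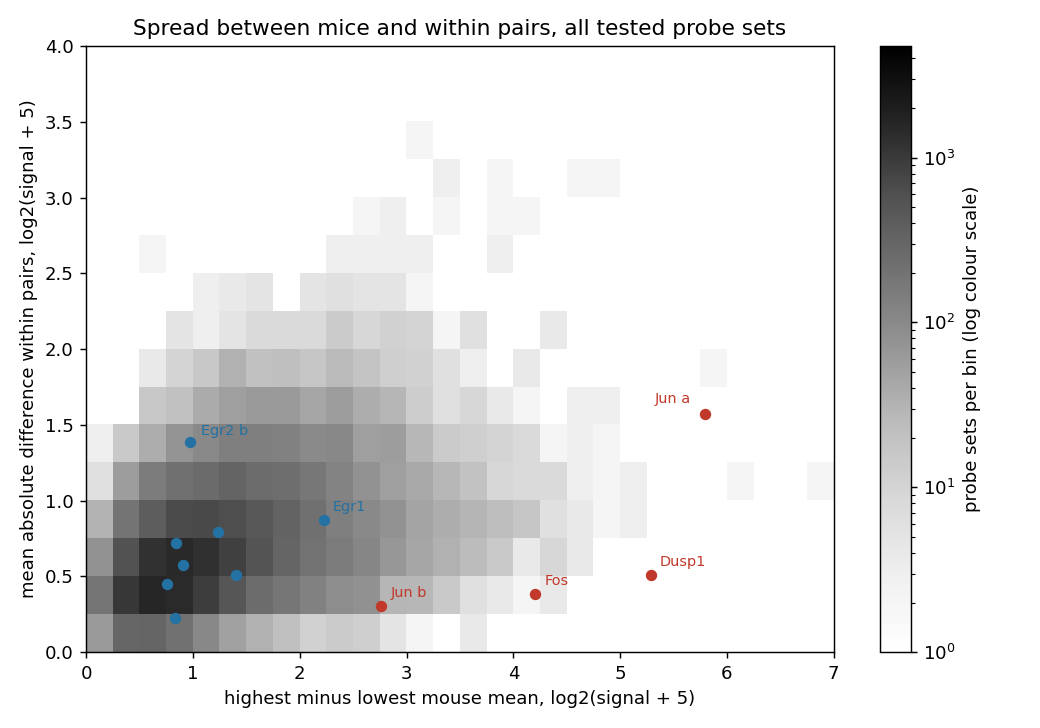
Highest minus lowest mouse mean (horizontal) against the mean absolute difference within pairs (vertical), both in log2(signal + 5); grey bins count all 22518 tested probe sets on a log colour scale, red points are Fos, Jun and Dusp1 and blue points the other members. Fos and Dusp1 combine a range between mice of 4.21 and 5.29 with differences within pairs of 0.38 and 0.51.

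The remaining members did not pass the test of the mouse term. Egr1 came nearest, with means 4.68-fold apart between mice 2 and 3 (limma adjusted p = 0.200), Jund b followed (adjusted p = 0.388), and Fosl2, Junb, Egr2 and Egr3 had adjusted p from 0.604 to 0.856. Egr2 and Egr3 did not share the order of Fos: Egr3 and Egr2 a had their highest mean in mouse 3 and their lowest in mouse 2. Fosb, untested, also had its highest mean in mouse 2, with its lowest in mouse 1. Mice 2 and 3 were of the same strain, differed in age by the labels (20 and 23 months), and were the mice whose polyclonal samples had the lowest purity (75 and 66%).

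The calls for the mouse term were not equally firm. Without mouse 4 the limma adjusted p was 0.0671 for each of Fos, Dusp1 and Jun a, with 0 calls over the whole array. Without mouse 3 it was 0.0895 for Fos, and without mouse 2 it was 0.0511 for Dusp1 and 0.132 for Jun a. Without an intensity trend in the variance it was 0.0710, 0.0688 and 0.0688 for the same 3 probe sets. Between mice 1 and 4 alone, with pairs 2 and 3 left out, none of the 3 passed (adjusted p = 0.355, 0.421 and 0.166). Each mouse is 1 animal, and the samples of a pair share the animal and its dissection, so the animal and its handling cannot be told apart.

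Other measures moved between the mice as well. The summed signal of the 5 measured B cell markers, mostly Ighm, was 38131 and 18643 in mouse 2 and between 4874 and 13550 elsewhere. Ighm, Cd22, Ms4a1 and Cd79b were above background on 8 of 8 arrays and Cd79a on 5 of 8. The mean was highest in mouse 2 for Ighm, Cd22, Cd79a and Cd79b. For Ms4a1 it was highest in mouse 1, at 854 and 854 against 805 and 577 in mouse 2. Over the groups the sum ranged from 4874 to 38131 in expansions and from 5426 to 18643 in polyclonal samples. The 3 measured neutrophil markers summed to 613 and 693 in mouse 3 and to between 1020 and 7152 in the other mice, at 613 to 7152 in expansions and 693 to 4510 in polyclonal samples, with Csf3r above background on 3 of 8 arrays. The ratio of 3' to 5' actin signal, a measure of RNA length after amplification, was 52.6 and 42.6 in mouse 2 and 47.6 and 34.9 in mouse 3, and 38.2 to 89.7 elsewhere. The same ratio for Gapdh was lowest in mouse 3, at 2.78 and 4.62 in its expansion and polyclonal sample, against 5.33 to 8.41 in the other mice. The part of these in the differences between mice was not tested.

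Other early genes were read from lists of known function, 1 probe set per gene. Of 27 tested further immediate early and early activation genes, the mean difference over all pairs was above zero for 5 and below it for 22, the median being -0.26 against -0.04 for all probe sets, and 0 passed (0% of all tested). In the alpha4-low pairs 1 of the 27 passed, where 0.0533% of all tested did, and it was lower: Nr4a2, whose product is an orphan nuclear receptor made after antigen receptor signals, with a difference of -3.85 (limma adjusted p = 0.0309). It read 149, 25.7 and 49.6 in expansions 2 to 4 against 553, 976 and 1418 in their partners, and expansion 3 was under background. Pair 1 went the other way, with 1299 in the alpha4-high expansion against 385 in its partner, a difference of 1.74. The Nr4a2 call was not firm: in the alpha4-low pairs 0 probe sets of the array passed without the intensity trend, and 0 without the replicate block. It rests on the brightest of 6 Nr4a2 probe sets, and the others are not described here. The next members by size of the mean difference over all pairs were Ifng, the interferon gamma gene, at -0.87, the mRNA decay factor gene Zfp36 at -0.82 and the inhibitor gene Nfkbid at -0.80, each with a limma adjusted p of 0.9998. For Ifng the pairs went opposite ways, at 0.75, 0.56, -2.18 and -2.60 in pairs 1 to 4. Zfp36 and Myc were lower in 4 of 4 expansions and Klf10 higher in 4 of 4.

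For the mouse term, 1 of the 27 passed (1.84% of all tested did): Klf4, a zinc finger factor gene of T cell quiescence. Its signals were 448, 2574, 173 and 1472 in expansions 1 to 4 and 560, 4181, 276 and 606 in their partners, with the highest mean in mouse 2 and the lowest in mouse 3 (limma adjusted p = 0.0313). Of the 27, 8 had both their highest mean in mouse 2 and their lowest in mouse 3, as did 5.05% of all tested probe sets. Among tested probe sets named for 1 gene only, Klf4 was also the closest to Fos by the mean absolute distance of centred log2 values over the 8 arrays, at 0.52. Jun b followed at 0.58. Next came Lhfp, Galnt4 and Shroom3 at 0.66, 0.67 and 0.67. Of the same kind, the probe sets closest to Egr1 were those of 2610037D02Rik (0.25), Pik3r3 (0.27), St3gal6 (0.28), Osbpl5 (0.28) and Hexim1 (0.35), most of them dim.

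**Figure D4:**
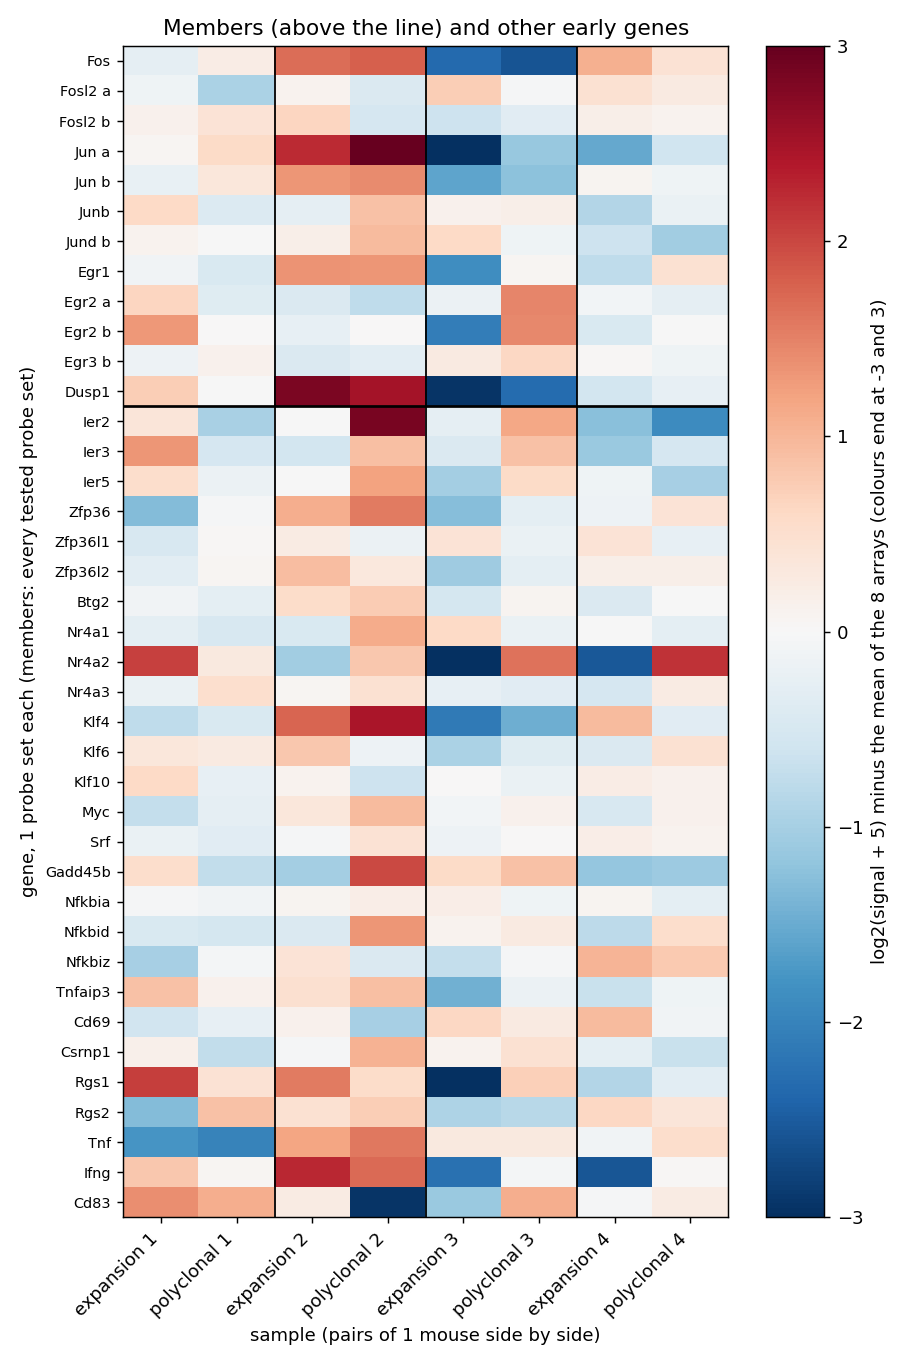
Level in each sample, as log2(signal + 5) minus the mean of the 8 arrays, of the tested members (above the line) and of 27 other early genes (below it), with the samples of a mouse side by side. Fos, Jun, Dusp1 and Klf4 share high values in mouse 2 and low values in mouse 3, and Nr4a2 is instead lowest in expansion 3 and expansion 4.

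Heat shock and sort stress genes are known to respond to cell handling and were read for that reason. Of 12 tested, the mean difference was above zero for 8 and below it for 4, the median being 0.11, and 0 passed. For the mouse term 2 of the 12 passed, where 1.84% of all tested did: Hspa1b (limma adjusted p = 0.0163) and Hspa1a (adjusted p = 0.0441), near-identical HSP70 genes whose probe sets may share transcripts. Hspa1b read 9034 and 2963 in the expansion and partner of mouse 1, 909 and 408 in mouse 2, 190 and 145 in mouse 3, and 193 and 238 in mouse 4. Its mean was highest in mouse 1 and lowest in mouse 3, while that of Fos was highest in mouse 2 and lowest in mouse 3. Hspa1a was above background on 4 of 8 arrays. With each gene centred at its own log2 mean, the median of the 12 was -0.33 and -0.35 in the expansion and partner of mouse 3. It was 0.34 and 0.38 in those of mouse 1, and -0.18 to 0.11 in the other samples. The part of handling in these levels was not tested.

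Among 12 tested further dual-specificity phosphatase genes, relatives of Dusp1, the mean difference was above zero for 7 and below it for 5, the median being 0.04. None passed (0 in all pairs, 0 in the alpha4-low pairs and 0 for the mouse term). Dusp2, a phosphatase gene of activated lymphocytes, had a mean difference of -1.43, with 2254 in polyclonal sample 2 and 66.5 to 540 in the other samples. The other AP-1 and bZIP partners gave 4 positive and 5 negative of 9 tested, with a median of -0.06. The largest in size were Jdp2, a repressor of AP-1, at -0.85, the small MAF gene Mafg at -0.54 and Batf, a partner of JUN proteins in lymphocytes, at -0.53, and 0 passed. The Batf pairs went opposite ways, at 3.90, -3.48, -2.75 and 0.20 in pairs 1 to 4.

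EGR partners and known T cell targets gave 4 positive and 8 negative of 12 tested, with a median of -0.34 and 0 past the threshold. Among them Cblb, an E3 ligase gene that raises the threshold of T cell activation, had a mean difference of -0.77 and Rnf128, the gene of the anergy-related ligase GRAIL, one of 0.72. Genes of the MAP kinase route to AP-1 and EGR gave 6 positive and 14 negative of 20 tested, with a median of -0.20. The largest was Map4k1, a negative regulator of T cell receptor signalling, at -0.93. Memory and resting T cell genes gave 1 positive and 7 negative of 8 tested, with a median of -0.45, led by Lef1, a factor of naive and memory T cells, at -1.02. The Lef1 difference was -2.76 in pair 1, the alpha4-high one, and -0.40, -0.91 and -0.03 in pairs 2 to 4. Of the genes in these 3 lists 0 passed in all pairs, in the alpha4-low pairs or for the mouse term, where the shares over the array were 0, 0.0533 and 1.84%.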

How the data were processed

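RNA of 8 sorted samples was amplified in a double procedure and hybridised to Affymetrix whole-genome mouse arrays, per the labels' protocols. The deposited intensity values are linear MAS5 signals, a method named in the submitters' processing notes without a version. The 2% trimmed mean, averaged over the 8 arrays, is 500, and none was rescaled. Where arrays are scaled to a common level, a change in total RNA per cell is hidden. Double amplification favours 3' ends. The table has no detection calls. Gene names came from the platform annotation, from probe sets with 1 gene only.

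Values were taken as log2(value + 5). The 64 control probe sets and those with a mean at or under the median (a signal of about 45.3) were left out, leaving 22518. The linear models used limma 3.58.1 under R 4.3.3 (eBayes with an intensity trend, two-sided, Benjamini-Hochberg adjustment over all tested probe sets, threshold 0.05), and a fixed term for the mouse, whose samples the series' design text pairs. The all-pairs model had 3 residual degrees of freedom and the subclass model 2. The mouse term was tested as a moderated F test. Deviations from the group means correlated within mice 1 to 4 at 0.374, 0.0771, 0.214 and 0.338. Between mice they ran from -0.347 to 0.301, and those of expansions 2 and 3 were closer to a sample of another mouse (mouse 4 at 0.131, mouse 2 at 0.301) than to their partner, so the pairing rests on the design text. Pairs were matched by the numbers in the sample titles. The descriptions of expansions 3 and 4 number them otherwise (rep4 and rep5), which leaves the pairing of those samples less sure. The models were also run on simulated data with independent normal noise at the fitted SDs. Such data follow the assumptions of the models, so that run cannot show how well these hold for the real arrays. For expansions against polyclonal cells, p-values and SEs rest on the spread of the paired differences between these 4 animals, drawn toward a trend over all probe sets. They therefore do not measure the spread of the 4 pairs alone. The paired differences of Egr2 b had an SD of 2.02 and a model SE of 0.62. Those of Fosl2 a had an SD of 0.30 and a model SE of 0.47. The F test of the mouse term sets mice against the spread within pairs. There the samples of a mouse act as its replicates, though they are different cell populations of the same animal. It asks whether these animals differ and does not extend to others. Between subclasses, the alpha4-high pair stands alone and gives no spread of its own. The number of arrays limits the precision. Median signal was 46.5 to 75.1 per array. The scanner record of expansion 4 differs from the others, and any effect of it cannot be told apart from that sample.

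The members and lists were chosen with earlier results of these data known, and so were the tests. Named are all member probe sets, and from each list those that pass and otherwise up to 4 with the largest mean difference, on the brightest probe set per gene, together with the 5 probe sets closest in pattern to Fos and to Egr1. Klf10 and Myc were named after their values were seen. Alternatives covered the pseudocount, filter, quantile normalization, variance trend, sort purity, the replicate block and each pair left out. No genome coordinates other than those of RefSeq promoters were used here.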

Additional observations from a re-analysis of the deposited data

Results flagged for a closer look

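In groups of 4 samples, values whose gap to the nearest of the others took up most of the group's range were looked for in 45 sets (expansions, polyclonal samples and paired differences of the 15 probe sets), of which chance marks about 1 in 20. There were 2. Egr2 b read 1643 in polyclonal sample 3, against 599 to 609 in the other polyclonal samples. Egr3 a read 17.4 in expansion 4, against 7.43 to 8.68 in the other expansions, all of them under background.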

How the results depend on the processing

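Of the recomputed member differences between expansions and polyclonal cells, 385 kept their direction and side of the threshold, 34 changed sign and 1 passed. The cause of these changes was not tested. Sort purity as a covariate takes up a further residual degree of freedom. Purity was low in polyclonal samples 2 and 3 alone, so its effect cannot be told apart from what is particular to pairs 2 and 3. With sort purity as a covariate the all-pairs difference became -0.0018 for Fos, 0.062 for Junb, 0.61 for Egr2 a and 0.44 for Egr2 b. In the alpha4-low pairs purity gave 0.24 for Jun b, 0.56 and 0.13 for the Egr2 probe sets and 0.20 for Egr3, and for the difference between subclasses 0.010 for Jun a. Without pairs 2 and 3, a choice made after seeing the data, the all-pairs difference was -0.098 for Fosl2 b, 0.15 for Junb, and 0.60 and 0.43 for the Egr2 probe sets. Quantile normalization gave 0.0064 for Egr2 a over all pairs, 0.050 for Egr3 in the alpha4-low pairs and 0.037 for Jund between subclasses.

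With 1 pair left out at a time, all-pairs differences ran from -0.12 to 0.26 for Fos, -0.16 to 0.32 for Fosl2 b, -0.63 to 0.089 for Junb, -0.075 to 0.42 for Jund, -0.37 to 0.51 for Egr2 a, -1.41 to 0.20 for Egr2 b and -0.21 to 0.26 for Dusp1. In the alpha4-low pairs they ran from -0.098 to 0.62 for Fosl2 b, -0.23 to 0.057 for Jun b, -0.18 to 0.57 for Jund, -0.72 to 0.27 for Egr2 a, -0.23 to 0.029 for Egr3 and -0.48 to 0.012 for Dusp1, and between subclasses from -0.30 to 0.45 for Jund. The subclass difference cannot be fitted without pair 1.

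Over the whole array limma called 0 probe sets in all pairs (731 at an unadjusted p under 0.05), and 0 to 20 with a pair left out. In the alpha4-low pairs it called 12, and 22 with the filter at the 75th percentile, 6 after quantile normalization, 0 without the intensity trend, 0 without the replicate block and 18 to 148 with a pair left out. Between subclasses it called 12, and 0 at a pseudocount of 1, 25 at 16, 25 without a filter, 63 with the filter at the 75th percentile, 0 after quantile normalization, 0 without the trend, 143 without the replicate block and 64 to 266 with a pair left out. Without the replicate block the difference between subclasses was 0.57 for Fosl2 a and -0.067 for Fosl2 b; no member's call changed. For the mouse term, tested after seeing the data, 415 were called, and 28 after quantile normalization, 1 without the trend, 779 with purity as a covariate and 0 to 294 with a pair left out. Jun b passed that test at a pseudocount of 16 (limma adjusted p = 0.0468), without a filter (0.0374), with the filter at the 75th percentile (0.0318) and with purity (0.0374). Signals near background limit Fosb, Junb and the dim Jund, Egr3 and Fosl2 probe sets.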
